A study of Homo sapiens with 22 samples.

Results

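The transcripts of 9 S100 calcium-binding protein genes were followed in 2 acute myeloid leukemia cell lines treated with an FTO degrader. The members were chosen by gene symbol (S100A4, S100A6, S100A8, S100A9, S100A10, S100A11, S100A12, S100A13 and S100P) out of 20411 protein-coding genes listed in each table. MOLM-13 cells, a line with a rearranged KMT2A gene, and NB4 cells, an acute promyelocytic leukemia line, were treated for 48 hours with DMSO or with 2 μM FP54, a VHL-recruiting compound that directs the m6A eraser FTO to the proteasome. Each line and treatment gave 3 polyadenylated RNA-seq libraries, or 12 in all, numbered as replicates. Within a line the labels set the groups apart by treatment alone, and each line stands for a single leukemia. No label says that replicates came from separate cultures, so the p-values measure the spread between these libraries, which may be technical.

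S100 proteins are small dimers with a pair of EF-hand calcium-binding loops. On binding calcium they expose a surface that docks onto partners such as annexins and cytoskeletal proteins, and some are released and bind TLR4 or AGER (RAGE) on other cells. S100A8 and S100A9 form calprotectin, the main calcium-binding protein of neutrophils and monocytes, and their transcripts are widely used as markers of myeloid maturation. Immature blasts of the granulocytic lineage in turn carry MPO, the peroxidase of primary granules.

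The labelled lines were checked against marker genes in units of RPKM (reads per kilobase of gene, scaled to the library total, a level per length). HOXA9 and MEIS1, homeobox genes kept on by KMT2A fusions, stood between 19.1 and 25.4 RPKM and between 6.05 and 8.40 RPKM in MOLM-13 libraries. In NB4 libraries HOXA9 did not exceed 0.716 RPKM and MEIS1 did not exceed 0.190 RPKM. FTO transcript itself stood at 1.01 ± 0.0767 RPKM with DMSO and 1.01 ± 0.118 with FP54 in MOLM-13 cells (mean ± SD, n = 3, as for all later means), and at 2.73 ± 0.180 and 2.03 ± 0.0782 in NB4 cells. A degrader acts on the protein, so the FTO transcript does not check the treatment.

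Depth was recovered from the RPKM values, because 98.5 to 99.2% of low values in each library came out as whole reads within 0.05 of a read. The MOLM-13 libraries held 16299701 to 17346914 reads on genes with DMSO and 5829730 to 19191055 with FP54, where replicate 2 was the shallowest. The NB4 libraries held 20654055 to 22344265 reads with DMSO and 10595647 to 13071303 with FP54. The values are shares of a library's RNA, so that fewer cells of a type and less RNA per cell cannot be told apart. The 2 tables were normalized separately, and levels set side by side across the lines were not tested.

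One library stood apart before any comparison. In NB4 cells treated with FP54, replicate 1 held 17 genes far above all 5 other NB4 libraries, against 0 to 5 such genes in each of the other 11 libraries. Among the 17 were 3 members, S100A8, S100A9 and S100A12. Genes outside the family behaved alike, as PPDPF stood at 2.06 RPKM in that library and at 0 to 0.0446 in the other NB4 libraries. HLA-DRA, an MHC class II chain, stood at 1.59 RPKM there and at no more than 0.0778 elsewhere in NB4 cells. PPDPF, HLA-DRA, BEX1, PRAME, TGFBI and CEACAM6 are examples taken with their values known, and they do not cover all 17 genes. HOXA9 stood at 0.716 RPKM there and at 0.144 to 0.303 in the other NB4 libraries. In MOLM-13 libraries PPDPF stood at 31.1 to 77.7 RPKM, BEX1 at 12.8 to 77.5 and HLA-DRA at 1.30 to 3.56. The other examples high in that library were at or near 0 in MOLM-13 cells. TGFBI stood at 0.587 RPKM there and at no more than 0.0135 in MOLM-13 libraries. PRAME stood at 0.818 RPKM there and at 0 in all 6 MOLM-13 libraries, and CEACAM6 stood at 0.639 RPKM there and at no more than 0.0281 in MOLM-13 libraries. What set this library apart was not tested. Without this library the calls in NB4 cells were the same for 51 of the 52 listed genes tested, members included, and MYD88 lost its call.

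**Figure D1:**
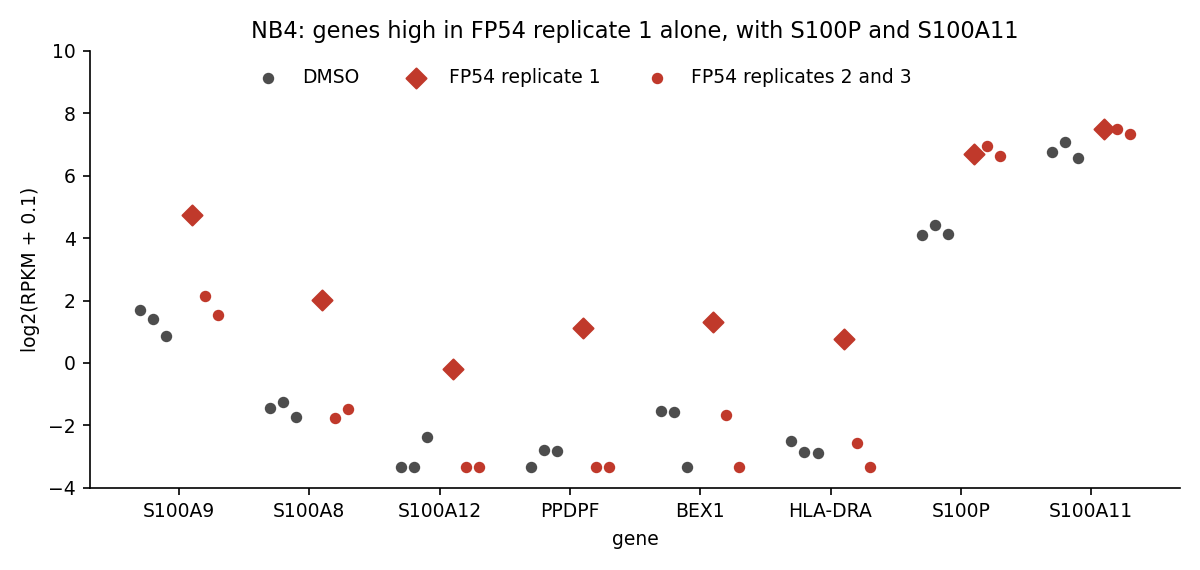
Level of 8 genes in the 6 NB4 libraries, as log2(RPKM + 0.1) on the vertical axis. Grey points are DMSO libraries, red points FP54 replicates 2 and 3, and the red diamond FP54 replicate 1, which lies above all other libraries for S100A9, S100A8, S100A12, PPDPF, BEX1 and HLA-DRA but beside the other FP54 libraries for S100P and S100A11.

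With DMSO the members spanned a wide range of levels in both lines, with S100A4, S100A6, S100A10 and S100A11 above the rest. In MOLM-13 cells with DMSO the order was S100A10 (222 ± 21.0 RPKM), S100A6 (194 ± 12.4), S100A4 (109 ± 9.94), S100A11 (91.5 ± 5.73), S100P (18.0 ± 4.72), S100A13 (7.18 ± 0.841), S100A9 (3.68 ± 0.554), S100A8 (1.08 ± 0.352) and S100A12 (0), and no neighbours in this order overlapped. In NB4 cells with DMSO it was S100A11 (113 ± 20.1 RPKM), S100A10 (90.2 ± 17.5), S100A4 (47.5 ± 1.36), S100A6 (41.1 ± 6.01), S100P (18.6 ± 2.37), S100A13 (5.86 ± 1.49), S100A9 (2.46 ± 0.707), S100A8 (0.263 ± 0.0581) and S100A12 (0.0308 ± 0.0533). There the libraries of S100A11 and S100A10 overlapped, as did those of S100A4 and S100A6. Together the members took 0.274 to 0.299% of summed RPKM in MOLM-13 DMSO libraries and 0.344 to 0.402% in FP54 libraries. In NB4 cells the share was 0.116 to 0.147% with DMSO and 0.202 to 0.221% with FP54, without overlap in either line. Of all single genes tested below, 37.1% in MOLM-13 and 60.5% in NB4 cells did not overlap. The sum rose mostly through S100A6 (to 300 RPKM) and S100A4 (to 185) in MOLM-13 cells, where S100P and S100A13 were lower. In NB4 cells it rose mostly through S100P (to 109 RPKM) and S100A11 (to 174), while S100A4 was lower.

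**Figure D2:**
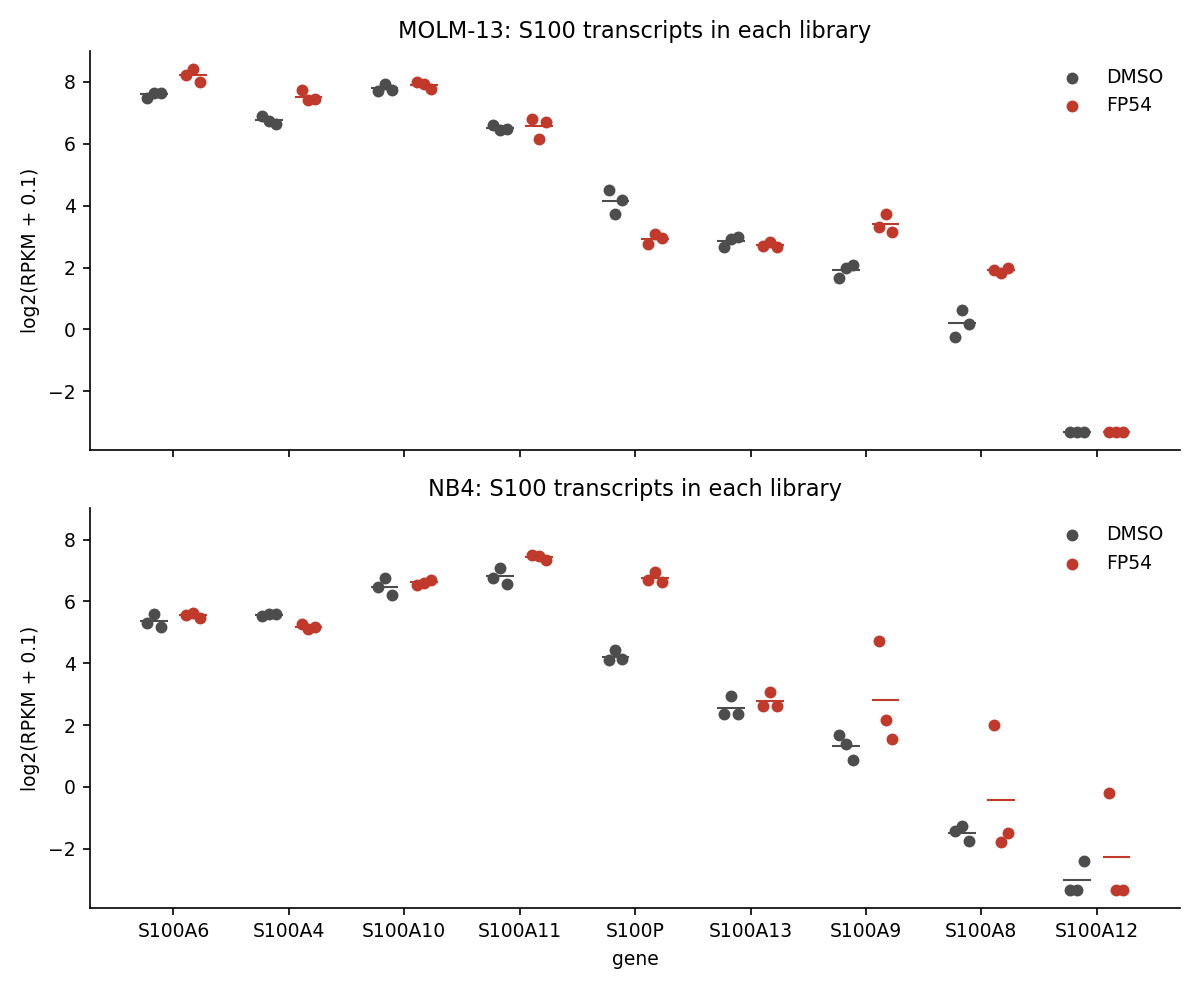
Level of the 9 members in each library, as log2(RPKM + 0.1) on the vertical axis, with MOLM-13 cells above and NB4 cells below. Each point is a library, bars are means of 3 libraries, grey is DMSO and red is FP54, and S100P lies lower with FP54 in MOLM-13 cells and higher in NB4 cells.

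To ask which members changed with FP54, log2(RPKM + 0.1) was compared by limma in each line over genes with a mean of at least 1 RPKM, and a gene was called where its p was below 0.01 before adjustment and its log2 fold change reached 0.5 in either direction. In MOLM-13 cells 8 of the 9 members could be tested, of which 4 were called higher (S100A4, S100A6, S100A8 and S100A9) and 1 lower (S100P). Of 9710 genes tested there, 9.3% were called higher and 9.04% lower. In NB4 cells 7 members could be tested, of which 2 were called higher (S100A11 and S100P) and 0 lower, while 18.6% of 9853 genes were called higher and 10.7% lower. At an unadjusted limma p below 0.05, 1 member was lower in NB4 cells (S100A4) and 3 were higher (S100A9, S100A11 and S100P), and limma-voom on the recovered reads called 0 lower and 2 higher (S100A11 and S100P). Of all genes tested in NB4 cells 24.7% were lower and 33.3% higher at that p, and limma-voom called 10.7% lower and 19.1% higher of 9818 genes. The DMSO and FP54 libraries did not overlap for 5 of 8 members in MOLM-13 cells, against 37.1% of all genes tested, and for 3 of 7 in NB4 cells, against 60.5%. The median log2 fold change of the tested members was 0.36 in MOLM-13 and 0.23 in NB4 cells, beside 0.00 and 0.07 over all tested genes. S100A12 was under the filter in both lines and S100A8 in NB4 cells. The share of higher genes among all those called in NB4 cells was 63.6%, and it was 54.8% after median-ratio scaling and 48.4% after quantile normalization, which moved the median of all genes from 0.07 to -0.03. The NB4 calls of S100A11 and S100P held under both.

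**Figure D3:**
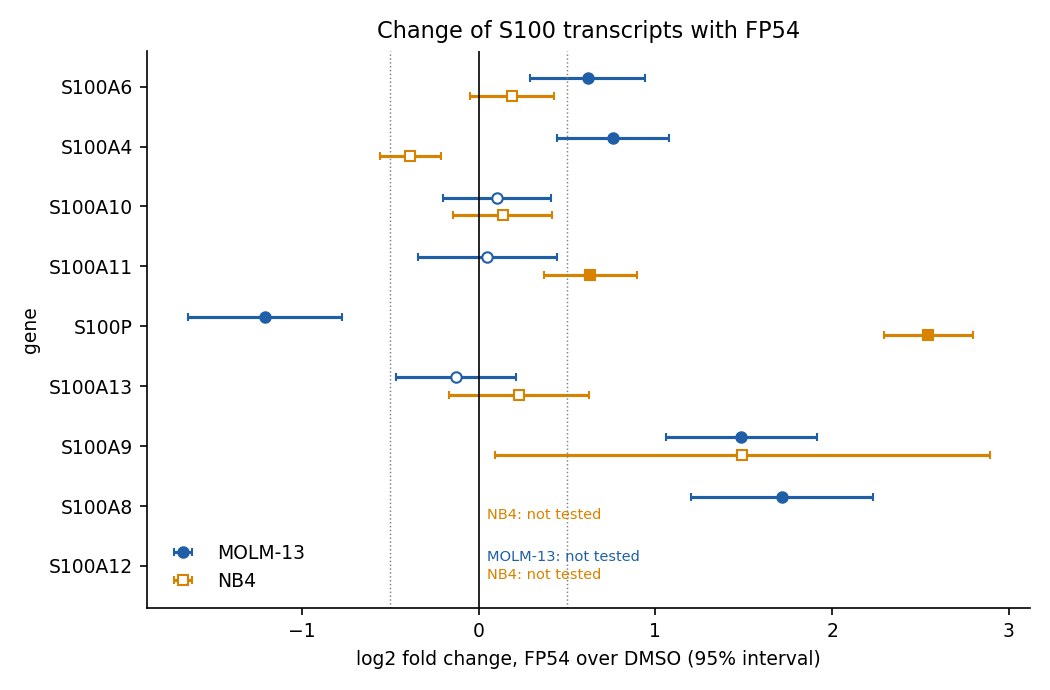
Log2 fold change of each member, FP54 over DMSO, with its 95% interval on the horizontal axis. Blue circles are MOLM-13 cells, orange squares NB4 cells, filled symbols are called genes, dotted lines mark 0.5 in size, and S100P is the member whose called changes point in opposite directions.

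S100P, a secreted and cytoplasmic member first found in placenta that binds AGER and ezrin, fell in MOLM-13 cells and rose in NB4 cells. Its gene lies apart from the rest of the members at chr4:6693878-6697170 on the plus strand (hg38, GENCODE annotation). Its upstream 250 bases are shown because S100P is the member called in both lines, in opposite directions. They come from RefSeq (GRCh38.p14, chr4:6693628-6693877, plus strand, ending at the base before the start), with matches to TGATGNAA, a form of the ATF4 and C/EBP composite motif, and to TATAAA in capitals.
S100P: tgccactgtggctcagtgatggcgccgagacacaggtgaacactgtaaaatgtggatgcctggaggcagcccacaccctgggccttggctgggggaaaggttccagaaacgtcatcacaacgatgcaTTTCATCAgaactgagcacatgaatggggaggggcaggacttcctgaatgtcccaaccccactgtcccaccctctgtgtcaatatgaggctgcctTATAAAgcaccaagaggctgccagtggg
The TGATGNAA match stands on the opposite strand with its first base 123 bases before the start. All 9 members were found in the RefSeq promoter table, and S100P was the 1 member with such a match, on either strand, while 3.15% of 34943 windows of this length held it. TATAAA stood in windows of 6 members and in 10.8% of all windows. The 9 members had 13 windows, so here and below a count of members is not directly comparable with a share of windows. A match is a description of letters and no evidence of binding.

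In MOLM-13 cells S100P stood at 22.7, 13.3 and 18.0 RPKM with DMSO and at 6.75, 8.38 and 7.59 with FP54. All FP54 libraries were below all DMSO libraries, with a mean 2.38-fold lower. The log2 fold change was -1.21 ± 0.20 (SE; limma adjusted p = 0.00478). In NB4 cells the values were 17.1, 21.3 and 17.4 RPKM with DMSO and 104, 124 and 99.1 with FP54. Here each FP54 library was far above each DMSO library, with a mean 5.85-fold higher. The log2 fold change was 2.54 ± 0.11 (limma adjusted p = 1.27e-07), and it was 2.58 without FP54 replicate 1. The values rest on 23 to 177 reads in MOLM-13 libraries and on 166 to 679 reads in NB4 libraries. Among the members S100P held rank 5 with DMSO in both lines, and in NB4 cells with FP54 it held rank 2 at 109 ± 13.2 RPKM, in a range that overlapped S100A10.

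The change of S100P differed between the lines by 3.75 on the log2 scale (95% interval 3.24 to 4.27, limma interaction adjusted p = 1.54e-07). Of 8849 genes tested in both lines, 14.2% differed at an adjusted p below 0.05, and so did 2 of the 7 members tested in both, S100P and S100A4. For this test a replicate number was left out of both treatments and both lines at once. The count of all differing genes, 1258, then fell to 442 without the libraries numbered 1 and to 501 without those numbered 3. S100P and S100A4 differed in each case.

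S100P was also compared with every gene tested in both lines by the root-mean-square difference of log2(RPKM + 0.1), centred on each line, over the 12 libraries. The 3 nearest of 8848 genes were TRIB3 at 0.17, SEL1L3 at 0.27 and ASNS at 0.27, where the profile of S100P itself had a root mean square of 1.02. TRIB3, which encodes a pseudokinase, stood at 19.1, 13.7 and 18.3 RPKM with DMSO and at 7.49, 7.30 and 8.49 with FP54 in MOLM-13 cells. In NB4 cells TRIB3 stood at 17.3, 17.9 and 14.1 RPKM with DMSO and at 76.6, 87.1 and 75.1 with FP54. ASNS, asparagine synthetase, went from 8.11 to 9.29 RPKM with DMSO to 47.2 to 51.0 with FP54 in NB4 cells. These genes were picked for their likeness, so their changes are a description without a test. In MOLM-13 cells their log2 fold changes were -1.11 for TRIB3, -0.63 for SEL1L3 and -0.63 for ASNS, and in NB4 cells 2.27, 2.41 and 2.46. The ASNS libraries in MOLM-13 cells overlapped between treatments, as FP54 replicate 3 stood at 10.9 RPKM and DMSO replicate 2 at 10.5.

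**Figure D4:**
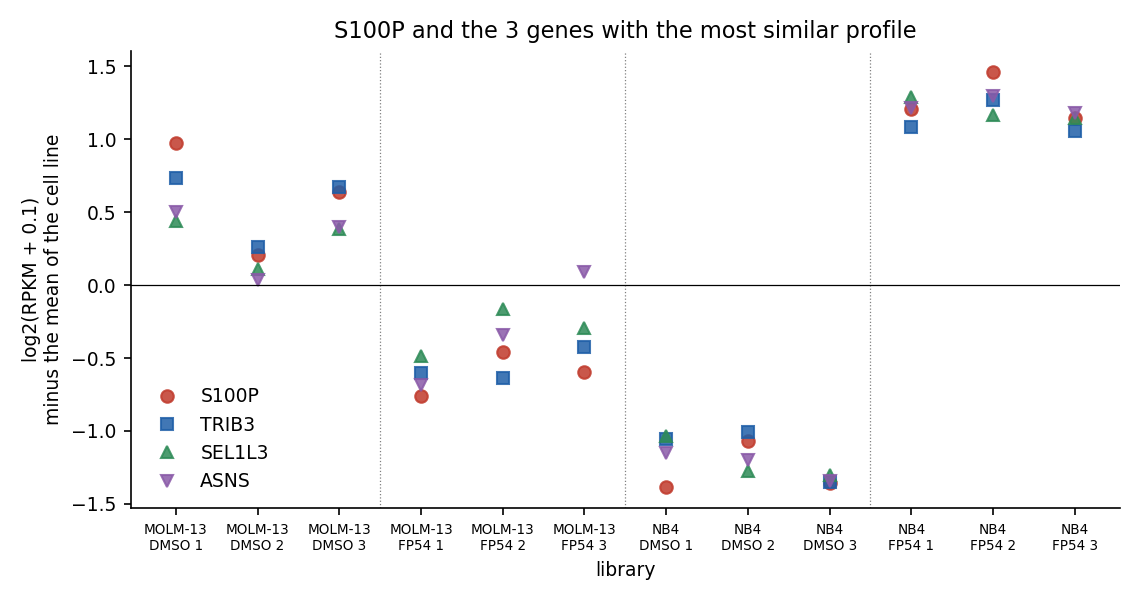
Profile of S100P and its 3 nearest genes over the 12 libraries, as log2(RPKM + 0.1) minus the mean of the gene in that cell line. Symbols mark genes and dotted lines separate groups; the 4 genes lie lower with FP54 in MOLM-13 cells, apart from ASNS in replicate 3, and higher with FP54 in NB4 cells.

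S100A8 and S100A9, the calprotectin subunits, rose together in MOLM-13 cells from low levels. S100A9 lies at chr1:153357854-153361023 on the plus strand and S100A8 at chr1:153390032-153391073 on the minus strand, with S100A12 between them. Their upstream bases are shown because the subunits share the letters GAGGAAG, a form of the PU.1 motif, in capitals on the opposite strand, together with TATAAA in S100A9. The S100A9 window is chr1:153357604-153357853 (plus strand), and the S100A8 window, the most upstream of 3 RefSeq starts, is chr1:153391189-153391438 (minus strand). The window directly before the annotated S100A8 gene, chr1:153391074-153391323, is not printed and holds both the PU.1 letters and TATAAA, the latter 29 bases before the start.
S100A9: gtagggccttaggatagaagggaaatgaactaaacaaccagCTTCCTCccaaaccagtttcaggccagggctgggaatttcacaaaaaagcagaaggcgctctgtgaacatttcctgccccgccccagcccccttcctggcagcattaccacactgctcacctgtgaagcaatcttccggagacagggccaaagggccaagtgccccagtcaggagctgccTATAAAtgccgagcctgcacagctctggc
S100A8: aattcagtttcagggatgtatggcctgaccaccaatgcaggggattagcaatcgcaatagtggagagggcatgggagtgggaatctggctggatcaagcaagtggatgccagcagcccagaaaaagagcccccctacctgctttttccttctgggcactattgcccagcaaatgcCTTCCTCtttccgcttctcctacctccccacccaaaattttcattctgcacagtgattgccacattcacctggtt
Of the 9 members these were the 2 with GAGGAAG on either strand, which 11.3% of all windows held. TTGCNNAA, a form of the C/EBP motif, was found in S100A11 and S100A12 (9.06% of all windows), and TGANTCA, the AP-1 motif, in S100A12 (6.59%).

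In MOLM-13 cells S100A9 stood at 3.06, 3.85 and 4.12 RPKM with DMSO and at 9.82, 13.2 and 8.71 with FP54. The groups did not overlap, and the mean was 2.87-fold higher with FP54. The log2 fold change was 1.49 ± 0.19 (limma adjusted p = 0.00209). S100A8 stood at 0.746, 1.45 and 1.04 RPKM with DMSO and at 3.68, 3.47 and 3.83 with FP54, which is 11, 21 and 16 reads against 63, 18 and 41. Its 3 FP54 libraries lay close together above all DMSO libraries, at a mean 3.40-fold higher and a log2 fold change of 1.72 ± 0.23 (limma adjusted p = 0.00247). Even so S100A9 with FP54 remained at 10.6 ± 2.32 RPKM, far under S100A10 at 239 ± 18.2 RPKM.

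In NB4 cells the same genes rested on the library that stood apart. S100A9 stood at 3.13, 2.54 and 1.72 RPKM with DMSO and at 26.5, 4.35 and 2.80 with FP54, and the groups overlapped. Its log2 fold change was 1.49 ± 0.63 and was not called (limma adjusted p = 0.0703), and without FP54 replicate 1 it was 0.53 (adjusted p = 0.131). Without FP54 replicate 3 it was 2.13 and was called (adjusted p = 0.0122). A replicate block also gave a call for S100A9, although samples with the same replicate number did not deviate together. The 26.5 RPKM of replicate 1 also exceeded every MOLM-13 library. S100A8 stood at 0.272, 0.316 and 0.201 RPKM with DMSO and at 3.92, 0.193 and 0.258 with FP54, or 5, 6 and 4 reads against 37, 2 and 3, and was not tested. S100A12 (calgranulin C, another ligand of AGER) had 0, 0 and 1 reads with DMSO and 4, 0 and 0 with FP54 in NB4 cells and 0 reads in all 6 MOLM-13 libraries, where it was not detectable at a depth at which 3 reads correspond to 0.322 to 1.06 RPKM.

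The balance of the calprotectin subunits was compared as the log2 ratio of S100A8 to S100A9. S100A9 exceeded S100A8 in all 12 libraries, by 4.10, 2.67 and 3.98 times with DMSO and 2.67, 3.801 and 2.28 times with FP54 in MOLM-13 cells. In NB4 cells it did so by 11.5, 8.03 and 8.55 times with DMSO and 6.77, 22.5 and 10.9 times with FP54, on as few as 2 S100A8 reads. The log2 ratio moved by 0.31 in MOLM-13 cells (exact permutation test, two-sided, p = 0.3) and by -0.36 in NB4 cells (exact permutation test, two-sided, p = 0.7). With 3 libraries against 3 the smallest p that this exact permutation test allows is 0.1. The direction was not stable, as it turned to -0.11 in MOLM-13 cells with a pseudocount of 1 and to 0.11 in NB4 cells without FP54 replicate 2.

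S100A4 and S100A6, which lie on either side of S100A5 and bind non-muscle myosin (S100A4) and annexins and the ubiquitin-ligase adaptor CACYBP (S100A6), rose in MOLM-13 cells. S100A4 stood at 120, 106 and 100 RPKM with DMSO and at 212, 170 and 173 with FP54. No libraries overlapped, and the mean was 1.70-fold higher, with a log2 fold change of 0.76 ± 0.14 (limma adjusted p = 0.00845). S100A6 stood at 180, 201 and 202 RPKM with DMSO and at 299, 343 and 258 with FP54. It was higher in all FP54 libraries, with a mean 1.54-fold higher and a log2 fold change of 0.62 ± 0.15 (limma adjusted p = 0.0188). The S100A6 call was lost without DMSO replicate 1, when the log2 fold change was 0.56 (adjusted p = 0.0782).

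In NB4 cells S100A4 pointed the other way. It stood at 45.9, 48.1 and 48.4 RPKM with DMSO and at 38.2, 34.6 and 36.2 with FP54. Every FP54 library was below every DMSO library, but the log2 fold change of -0.39 ± 0.08 (limma adjusted p = 0.00216) was under 0.5 in size and was not called, and without FP54 replicate 1 it was -0.42. The change of S100A4 differed between the lines by -1.15 on the log2 scale (95% interval -1.49 to -0.81, limma interaction adjusted p = 0.000235). S100A6 stood at 39.7, 47.7 and 36.0 RPKM with DMSO and at 47.2, 48.9 and 43.6 with FP54 in NB4 cells, with overlap and a log2 fold change of 0.19 (limma adjusted p = 0.166). For S100A6 the difference between the lines was -0.43 (95% interval -0.82 to -0.03, adjusted p = 0.142).
The upstream bases of S100A4 (RefSeq, GRCh38.p14, chr1:153545807-153546056, minus strand) are shown because it is the other member whose change differed between the lines, and of the motifs searched they held TATAAA alone, in capitals.
S100A4: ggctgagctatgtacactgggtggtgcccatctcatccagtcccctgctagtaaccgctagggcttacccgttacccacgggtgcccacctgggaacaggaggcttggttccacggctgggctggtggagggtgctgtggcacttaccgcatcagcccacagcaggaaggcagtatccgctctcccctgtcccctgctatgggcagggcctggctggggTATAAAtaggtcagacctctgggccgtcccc
The gene spans chr1:153543613-153550136 on the minus strand, so that the RefSeq start behind these bases lies inside the span, and it overlaps S100A3 on the same strand. S100A3 did not exceed a group mean of 0.0947 RPKM.

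S100A11, which binds annexin A1 and takes part in membrane repair, rose in NB4 cells. It stood at 109, 135 and 95.3 RPKM with DMSO and at 180, 178 and 163 with FP54, without overlap and with a mean 1.54-fold higher. The log2 fold change was 0.63 ± 0.12 (limma adjusted p = 0.00135), and 0.61 without FP54 replicate 1 (adjusted p = 0.01001). In MOLM-13 cells S100A11 stood at 98.1, 87.5 and 88.9 RPKM with DMSO and at 113, 71.6 and 105 with FP54. Here the groups overlapped, as the shallow FP54 replicate 2 was the lowest of the 6 libraries, and the log2 fold change was 0.05 (95% interval -0.34 to 0.44, limma adjusted p = 0.864). The difference between the lines was 0.58 (95% interval 0.09 to 1.07, adjusted p = 0.110). S100A11 has 8 named pseudogenes in the annotation, and reads shared with them were not measured.

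S100A10, the annexin A2 partner of the plasminogen-binding heterotetramer, and S100A13, which assists the release of FGF1, were called in neither line. S100A10 ranged from 207 to 246 RPKM with DMSO and from 219 to 254 with FP54 in MOLM-13 cells, with a log2 fold change of 0.10 (95% interval -0.20 to 0.41). In NB4 cells S100A10 ranged from 73.8 to 109 RPKM and from 92.9 to 104, with a log2 fold change of 0.14 (95% interval -0.14 to 0.42). S100A13 lay between 6.19 and 7.80 RPKM in MOLM-13 libraries and between 4.98 and 8.38 in NB4 libraries. Its log2 fold changes were -0.13 (95% interval -0.46 to 0.21) and 0.23 (95% interval -0.16 to 0.63), with overlap of the groups in both lines. S100A13 overlaps S100A1 on the opposite strand, and S100A1 did not exceed a group mean of 0.474 RPKM.

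High and low genes of the family lay next to each other. The cluster from S100A9 to S100A1 spans 274.2 kb of chromosome 1 and holds 14 protein-coding genes, all of the family. In it S100A6 at 194 RPKM stands next to S100A5 at 0.313 RPKM, which in turn neighbours S100A4 at 109 RPKM (means of MOLM-13 cells with DMSO). S100A10 and S100A11 form a separate pair within 65.0 kb. Of the called members of the cluster in MOLM-13 cells, S100A9 and S100A8 lie at its one end and S100A6 and S100A4 in its middle, while S100A13 near the other end was not called.

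**Figure D5:**
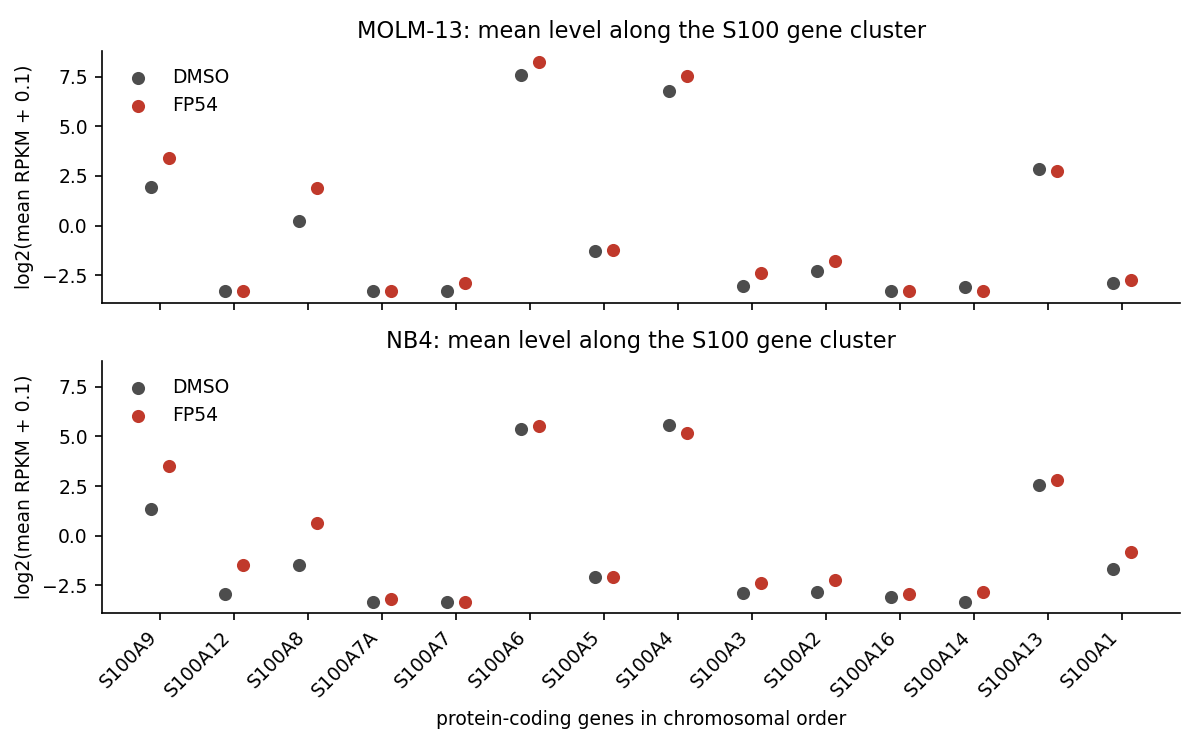
Mean level of the 14 protein-coding genes of the chromosome 1 cluster in chromosomal order, as log2(mean RPKM + 0.1), with MOLM-13 cells above and NB4 cells below. Grey points are DMSO and red points FP54 means of 3 libraries; high genes such as S100A6 and S100A4 alternate with genes near the lower edge, where the level is 0.

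The other 11 S100 genes listed were low in MOLM-13 cells, where 0 passed the filter. In NB4 cells 2 passed, S100B and S100G. S100B, a glial member of the family, stood at 13.2, 15.6 and 12.6 RPKM with DMSO and at 17.8, 18.4 and 14.6 with FP54, with overlap and a log2 fold change of 0.29 (limma adjusted p = 0.0558). In MOLM-13 cells S100B did not exceed 0.184 RPKM. S100G, the vitamin D-dependent calbindin of the intestine, stood at 0.106, 0.103 and 0.295 RPKM with DMSO and at 3.53, 3.59 and 2.02 with FP54 in NB4 cells, or 1, 1 and 3 reads against 17, 19 and 12. It was called higher (limma adjusted p = 5.76e-06), but it passed the filter through the FP54 group alone and had to differ. S100G lies within CTPS2 on the opposite strand, whose level was 1.88 to 2.46 RPKM with DMSO and 2.25 to 2.46 with FP54 in NB4 cells. In the same FP54 libraries 416 genes of olfactory receptors, the odorant receptors of sensory neurons, had a mean of 0.0496 to 0.0549 RPKM, against 0.00168 to 0.00372 with DMSO, and the part of this background in the S100G value was not tested.

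Among 11 receptors and adaptors of extracellular S100 proteins, 9 were tested in MOLM-13 cells and 0 were called by limma, while 3 had an unadjusted p below 0.05 (IRAK4, LY96 and TLR4, all higher) and limma-voom called 1, TLR4. Over all genes in MOLM-13 cells 9.3% were called higher and 9.04% lower by limma, 17.6% were higher and 17.4% lower at a p below 0.05, and 10.5% were called higher and 9.79% lower by limma-voom. The median log2 fold change of the 9 was 0.32, beside 0.00 over all tested genes. TLR4, the calprotectin receptor, stood at 1.99, 2.64 and 1.91 RPKM with DMSO and at 3.49, 2.80 and 3.71 with FP54, without overlap and with a log2 fold change of 0.60 (limma adjusted p = 0.0569). AGER stood at 8.24, 16.3 and 15.6 RPKM with DMSO and at 8.09, 11.2 and 6.37 with FP54, with overlap (log2 fold change -0.61, limma adjusted p = 0.143). In NB4 cells 8 were tested and 1 was called, MYD88, the adaptor of TLR4 signaling, where 18.6% of all genes were called higher and 10.7% lower (median log2 fold change 0.19, beside 0.07 over all genes). MYD88 stood at 6.23, 5.05 and 5.85 RPKM with DMSO and at 8.85, 7.88 and 8.20 with FP54, a log2 fold change of 0.54 ± 0.11 (limma adjusted p = 0.00193), and 0.49 without FP54 replicate 1, when it was not called. CD14, the co-receptor that hands ligands to TLR4 and a monocyte marker, was under the filter in both lines. It stood at 0.624, 0.484 and 0.490 RPKM with DMSO and at 1.39, 1.46 and 1.11 with FP54 in MOLM-13 cells, on 13 to 44 reads. In NB4 cells CD14 stood at 0.176, 0.0570 and 0.190 RPKM with DMSO and at 0.458, 0.417 and 0.557 with FP54, on 2 to 12 reads. All FP54 libraries were above all DMSO libraries in both lines, and with no filter on low values CD14 was called higher in both (log2 fold changes of 1.17 and 1.30, limma adjusted p = 0.0599 and 0.0234). That setting called 4265 genes higher and 951 lower in NB4 cells (81.8% higher), and 808 higher and 530 lower in MOLM-13 cells (60.4% higher). In the same NB4 libraries the share of olfactory receptor genes above 0 was 7.45 to 11.3% with DMSO and 23.3 to 26.7% with FP54, and the part of this background in the CD14 values was not tested.

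Of 15 intracellular partners 12 were tested in each line, with medians of 0.20 in MOLM-13 and 0.07 in NB4 cells on the log2 scale (0.00 and 0.07 over all genes). In MOLM-13 cells 1 was called, lower, beside 9.04% of all genes. It was ezrin (EZR), a linker of membrane and actin that S100P binds. EZR stood at 79.6, 88.6 and 101 RPKM with DMSO and at 34.3, 61.7 and 36.8 with FP54, so that it was lower together with S100P (log2 fold change -1.06 ± 0.21, limma adjusted p = 0.0103). The EZR call was lost with no filter on low values (limma adjusted p = 0.128). In NB4 cells, where S100P rose, EZR stood at 145, 155 and 154 RPKM with DMSO and at 144, 141 and 145 with FP54 (log2 fold change -0.08, adjusted p = 0.391). In NB4 cells 2 partners were called, 1 higher and 1 lower (18.6% and 10.7% of all genes). AHNAK, a scaffold that binds S100A10 with annexin A2, rose from 39.5 to 77.8 RPKM in the mean (log2 fold change 1.01 ± 0.16, limma adjusted p = 0.000564). CACYBP, the S100A6-binding protein, fell by 0.73 on the log2 scale (limma adjusted p = 5.65e-05), from 77.8, 86.4 and 92.3 RPKM to 51.3, 51.2 and 51.3. ANXA2 stood at 2.502 to 3.45 RPKM in MOLM-13 libraries and at 12.002 to 13.98 RPKM in NB4 libraries. Its partner S100A10 stood at 207 to 254 RPKM in MOLM-13 libraries. RPKM divides by length, and the exons of ANXA2 span 11574 bases in GENCODE 44 against 1012 for S100A10. In reads, the MOLM-13 DMSO libraries held 626, 472 and 626 for ANXA2 and 3465, 4063 and 3754 for S100A10.

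Of 7 transcription factors of myeloid cells, 6 were tested in MOLM-13 cells and 1 was called higher, beside 9.3% of all genes (median log2 fold change of the list 0.31). CEBPD, which is induced in maturing and stimulated myeloid cells, stood at 48.3, 32.7 and 47.0 RPKM with DMSO and at 65.9, 55.4 and 67.4 with FP54 (log2 fold change 0.57 ± 0.17, limma adjusted p = 0.0441), and its call was lost with no filter on low values (adjusted p = 0.195). All 7 were tested in NB4 cells, of which 3 were called lower and 1 higher, beside 10.7% and 18.6% of all genes (median log2 fold change of the list -0.39). CEBPB, a factor of emergency granulopoiesis, stood at 11.03, 14.8 and 9.13 RPKM with DMSO and at 32.1, 36.4 and 29.6 with FP54 (log2 fold change 1.502 ± 0.16, limma adjusted p = 3.00e-05). CEBPD was lower there, at 56.8, 80.9 and 61.1 RPKM with DMSO and 35.9, 28.6 and 30.2 with FP54 (log2 fold change -1.06 ± 0.13). CEBPE, a factor of late granulocyte maturation, and KLF4, a monocytic factor, were the other genes called lower, with log2 fold changes of -0.78 and -0.71, and KLF4 lost its call with no filter (limma adjusted p = 0.0635). CEBPA and SPI1 (PU.1) were called in neither line. SPI1 stood at 141 to 163 RPKM with DMSO and 160 to 185 with FP54 in MOLM-13 cells, and at 70.8 to 95.5 and 59.2 to 62.9 in NB4 cells. The changes of 4 of the 6 factors tested in both lines differed between the lines (CEBPB, CEBPD, CEBPE and SPI1), beside 14.2% of all 8849 genes.

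Of 9 other EF-hand proteins all were tested in each line, with 1 called higher in MOLM-13 cells and 1 higher and 1 lower in NB4 cells. The shares over all genes were 9.3% higher and 9.04% lower in MOLM-13 cells and 18.6% and 10.7% in NB4 cells, and the medians of the list were 0.10 and -0.14 on the log2 scale. Grancalcin (GCA), a granulocyte EF-hand protein, rose in MOLM-13 cells from 5.64, 5.00 and 4.94 RPKM to 10.4, 7.61 and 9.92 (log2 fold change 0.82 ± 0.16, limma adjusted p = 0.0103). In NB4 cells PDCD6, a calcium sensor of membrane traffic, was called higher (log2 fold change 0.62, adjusted p = 0.00257) and EFHD2 lower (log2 fold change -0.54, adjusted p = 0.00113).

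Markers of myeloid stage and of other cells were set beside these changes. MPO fell in both lines, from 18.1, 12.8 and 17.4 RPKM to 3.43, 3.29 and 4.64 in MOLM-13 cells (log2 fold change -2.06, limma adjusted p = 0.000985) and from 2036, 2263 and 2211 RPKM to 1116, 1149 and 1082 in NB4 cells (log2 fold change -0.96, adjusted p = 1.28e-05). The NB4 call of MPO was lost with no filter (limma adjusted p = 0.0638). CSF3R, the G-CSF receptor, rose in both, with log2 fold changes of 0.61 (adjusted p = 0.0140) and 0.69 (adjusted p = 0.000429). LYZ, the most abundant of the 6 myeloid markers in MOLM-13 cells at 459 to 761 RPKM, and CD33 were called in neither line. The 5 lymphoid markers summed to 7.10 to 8.47 RPKM with DMSO and 11.7 to 12.02 with FP54 in NB4 cells, most of it CD3D, which rose (log2 fold change 0.69, adjusted p = 0.000181). The erythroid markers summed to 0 in NB4 DMSO libraries and to 0.189, 0.040 and 0.018 RPKM in FP54 replicates 1, 2 and 3, where the highest was the library that stood apart. Epithelial and stromal markers summed to 7.85 to 8.65 RPKM with DMSO and 8.91 to 11.7 with FP54 in NB4 cells, most of it EPCAM. In MOLM-13 cells the lymphoid markers summed to 0.729 to 1.56 RPKM, the epithelial and stromal markers to 0.190 to 0.286 RPKM and the erythroid markers to 0. The part of these markers in the S100 changes was not tested.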

How the data were processed

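The 12 RNA-seq libraries were used, out of 22 samples in the labels, and the other 10 (m6A-seq and polysome sequencing) were not analysed here. The members and the gene lists were chosen with earlier results of these data known. RNA was selected for poly(A) and libraries were made with a SMARTer stranded kit and sequenced single-end. Per the study's methods and the submitters' processing notes, the authors trimmed reads with cutadapt 4.8, removed duplicates with Clumpify, aligned to hg38 with STAR 2.7.11b and counted reads on protein-coding genes of GENCODE 42 with featureCounts 2.0.3. The strand setting of the counting and the gene length behind RPKM are not given in the sources used here. The authors deposited 1 RPKM table per cell line, with the line given by the table's name. Removing duplicates without molecular identifiers can lower the values of short, abundant genes such as S100A6 and S100A10.

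From the RPKM values, log2(RPKM + 0.1) was compared with limma 3.58.1 (R 4.3.3; lmFit, eBayes with an intensity trend) over genes with a mean of at least 1 RPKM in that line, with treatment as the term. Benjamini-Hochberg adjustment ran over all tested genes. The difference between the lines was the interaction in a fit of all 12 libraries. Fold changes on this scale understate the changes of low genes, and fold values in words are ratios of mean RPKM. Every gene of the lists could be named, and the nearest profiles were printed for members called in both lines. Read numbers were recovered from RPKM and exon lengths of GENCODE 44, checked over values under 60 reads; they cover counting error only. A gene stood far above the other libraries of its line where log2(RPKM + 0.2) exceeded each of them by more than 1.5, with antigen-receptor segments left out. On simulated data the MOLM-13 step recovered 97.5% of 200 genes changed by 1.5 on the log2 scale among 9710, the NB4 step 99.5% of 200 among 9853, and the interaction step 94.6% of 355 among 8743, with 76, 19 and 25 false calls. Promoter windows came from RefSeq (GRCh38.p14) and were searched on both strands for TTGCNNAA (C/EBP), TGATGNAA (ATF4 with C/EBP), TGANTCA (AP-1), GAGGAAG (PU.1) and TATAAA. The alternatives tried were other pseudocounts and filters, 2 other scalings, a replicate block, no trend, limma-voom on the recovered reads and an adjusted cutoff. Within a line each library was also left out. For the interaction each replicate number was left out of both treatments and both lines at once.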

Additional observations from a re-analysis of the deposited data

Results flagged for a closer look

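The results below were singled out because the change with FP54 in NB4 cells differed from that in MOLM-13 cells by the limma interaction test (adjusted p below 0.05 over 8849 genes, of which 14.2% differed). Each value is the log2 fold change in NB4 cells minus that in MOLM-13 cells. Among the members these were S100P, which fell in MOLM-13 cells and rose in NB4 cells (3.75, adjusted p = 1.54e-07), and S100A4, which rose in MOLM-13 cells and was lower without a call in NB4 cells (-1.15, adjusted p = 0.000235). Among the transcription factors CEBPB gave 1.31 (adjusted p = 0.00261), CEBPD -1.63 (adjusted p = 0.000334), CEBPE -1.21 (adjusted p = 0.00221) and SPI1 -0.56 (adjusted p = 0.0463). Of these CEBPD was called in both lines, higher in MOLM-13 cells and lower in NB4 cells. Among receptors and partners BSG (basigin) gave -0.54 (adjusted p = 0.0421), CACYBP -0.54 (adjusted p = 0.0270) and EZR 0.98 (adjusted p = 0.0155). The EF-hand genes GCA and EFHD2 gave -0.73 (adjusted p = 0.0367) and -0.82 (adjusted p = 0.0343). MPO, which fell in both lines, gave 1.10 (adjusted p = 0.00268). In all, 12 of the listed genes were singled out of 45 tested in both lines.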

How the results depend on the processing

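The calls of S100A4, S100A8, S100A9 and S100P in MOLM-13 cells and of S100A11 and S100P in NB4 cells held under every alternative in which the gene was tested, and a mean of at least 5 RPKM left S100A8 untested in MOLM-13 cells (4 members called). With no filter the adjusted p of the called MOLM-13 members was above 0.05, at 0.0572 for S100A9, 0.0593 for S100A8, 0.0711 for S100A4, 0.0832 for S100P and 0.105 for S100A6, while the calls rest on the unadjusted p. The same setting ended the calls of EZR and CEBPD in MOLM-13 cells and of KLF4 and MPO in NB4 cells. The number of all genes called in MOLM-13 cells went from 1781 to 1069 at a mean of at least 5 RPKM and ranged from 1038 (without FP54 replicate 1) to 2143 (without DMSO replicate 2) when single libraries were left out. In NB4 cells it went from 2884 to 5216 with no filter and to 1627 at a mean of at least 5 RPKM, as the number of genes tested changed. The number of genes whose change differed between the lines was 1258 of 8849. It went to 442 without replicate 1 and 501 without replicate 3, each left out of both treatments and both lines at once. It was 1704 after quantile normalization, 4591 of 20411 with no filter and 633 of 5076 at a mean of at least 5 RPKM. S100A4 and S100P differed under each of these settings. The log2 ratio of S100A8 to S100A9 turned from 0.31 to -0.11 in MOLM-13 cells with a pseudocount of 1, and from -0.36 to 0.11 in NB4 cells without FP54 replicate 2, within a range of -0.76 to 0.11 over single libraries left out. S100A9 in NB4 cells was called without FP54 replicate 3 (2.13, adjusted p = 0.0122), and the difference of S100A11 between the lines passed after quantile normalization (0.74, adjusted p = 0.0322); the cause was not tested. Quantile normalization moved the median of all NB4 genes by -0.10 and gave log2 fold changes of 0.86 for S100A11, 2.68 for S100P and -0.25 for S100A4. Samples with the same replicate number did not deviate together (correlations of -0.26, -0.13 and -0.06 in MOLM-13 cells and -0.14, 0.07 and 0.12 in NB4 cells), so the numbers were not taken as pairs. With the replicate block S100A9 in NB4 cells was called (1.49, adjusted p = 0.00694), which made 3 members called there, and the number of genes called was 1697 in MOLM-13 and 2912 in NB4 cells. Depth limits S100A8 and S100A12, which rest on at most 6 reads in 5 of the 6 NB4 libraries.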
